A study of Homo sapiens with 8 samples.

Results

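The genes described here are 32 human genes of cholesterol and fatty acid synthesis, of their sterol-sensing regulators and of sterol transport, followed in U2OS osteosarcoma cells after silencing of the kinase CDK9. They were chosen by gene symbol. Of the 32, 30 had a probe set of their own on the array, out of 18417 genes tested. FDFT1, squalene synthase, is named by no probe set, and HSD17B7, a sterol ketoreductase, is named only together with another gene, so neither was analysed here. All 30 lay above the lowest 30% of genes by mean signal, which are called dim. One group was U2OS cells transfected with siRNA against CDK9 and the other was U2OS cells transfected with a non-targeting siRNA, with 4 arrays in each, labelled CDK9 Knock Down and Nonspecific siRNA. Both groups received 10 nM siRNA with the same transfection reagent, grew in the same serum-containing medium and were harvested after 72 h. The replicates are described as biological. U2OS is a single tumour cell line, and the labels do not say how many different siRNAs were used.

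CDK9 is the catalytic subunit of P-TEFb, the kinase that lets RNA polymerase II leave its pause and elongate. Cells make cholesterol from acetyl-CoA through mevalonate, isoprenoids and squalene, and make fatty acids from malonyl-CoA with fatty acid synthase, elongases and desaturases. Most genes of both pathways are targets of the SREBP transcription factors, which SCAP escorts from the endoplasmic reticulum to the Golgi for cleavage when sterols are low and which the INSIG proteins hold back when sterols are plentiful. The sterol-activated nuclear receptors of the LXR family act on export, for which ABCA1 is the classic target.

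The promoters of the 4 genes that rose with CDK9 siRNA (STARD4, SCD, ELOVL6 and FADS1) and of SREBF2, which encodes the SREBP most tied to cholesterol synthesis, are shown to let their motifs be compared. Each is the RefSeq sequence of GRCh38.p14 from 250 bases before to 50 bases after an annotated start, read 5′ to 3′ on the gene's strand. Capitals mark exact matches on either strand to the sterol regulatory element TCACNCCAC, where N is any base, to the NF-Y box CCAAT or to the Sp1 box GGGCGG.
SREBF2 promoter, chr22:41832855-41833154, plus strand: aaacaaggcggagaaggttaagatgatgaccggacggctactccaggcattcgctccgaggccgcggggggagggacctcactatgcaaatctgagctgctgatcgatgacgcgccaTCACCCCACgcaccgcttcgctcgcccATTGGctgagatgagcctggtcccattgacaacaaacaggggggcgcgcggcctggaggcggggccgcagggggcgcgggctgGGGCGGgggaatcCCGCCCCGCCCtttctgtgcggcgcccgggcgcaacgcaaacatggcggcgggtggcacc
STARD4 promoter, chr5:111512486-111512785, minus strand: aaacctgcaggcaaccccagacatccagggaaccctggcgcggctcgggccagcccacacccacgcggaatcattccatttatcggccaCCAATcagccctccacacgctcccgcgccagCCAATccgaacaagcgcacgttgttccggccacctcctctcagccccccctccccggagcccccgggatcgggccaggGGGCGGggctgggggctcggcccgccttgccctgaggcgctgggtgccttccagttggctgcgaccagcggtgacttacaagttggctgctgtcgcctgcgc
SCD promoter, chr10:100346983-100347282, plus strand: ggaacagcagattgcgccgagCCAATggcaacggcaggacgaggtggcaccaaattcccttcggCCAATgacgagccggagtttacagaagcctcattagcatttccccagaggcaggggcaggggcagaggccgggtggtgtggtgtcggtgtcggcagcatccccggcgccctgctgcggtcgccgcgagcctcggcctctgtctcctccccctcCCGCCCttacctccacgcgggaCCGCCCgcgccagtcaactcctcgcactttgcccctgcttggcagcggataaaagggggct
ELOVL6 promoter, chr4:110198566-110198865, minus strand: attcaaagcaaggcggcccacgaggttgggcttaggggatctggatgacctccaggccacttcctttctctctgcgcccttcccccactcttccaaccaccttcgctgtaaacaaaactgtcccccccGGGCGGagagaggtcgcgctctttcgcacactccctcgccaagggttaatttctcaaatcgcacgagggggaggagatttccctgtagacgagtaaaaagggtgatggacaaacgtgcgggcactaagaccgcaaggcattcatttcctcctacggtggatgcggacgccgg
FADS1 promoter, chr11:61816954-61817253, minus strand: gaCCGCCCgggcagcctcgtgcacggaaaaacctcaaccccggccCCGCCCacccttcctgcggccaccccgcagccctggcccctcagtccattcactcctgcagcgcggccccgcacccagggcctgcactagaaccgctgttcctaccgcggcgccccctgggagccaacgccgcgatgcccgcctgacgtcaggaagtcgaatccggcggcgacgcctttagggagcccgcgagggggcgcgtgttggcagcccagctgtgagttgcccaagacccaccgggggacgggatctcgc

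SREBF2 held the sterol element at position 118 of the 300 printed bases, an inverted CCAAT at position 145 and 3 GGGCGG matches, of which the last pair share 1 base. No match of one motif overlapped a match of another in these 5 promoters. STARD4 held 2 CCAAT boxes and 1 GGGCGG box, SCD 2 of each, ELOVL6 1 GGGCGG box and FADS1 2. Over the 35116 promoters in the table, 1.13% held TCACNCCAC, 34.6% CCAAT and 44.95% GGGCGG. The table had 37 promoters of 28 of the 32 genes. SREBF2 was the only one of the 28 with TCACNCCAC in this window, while 19 had CCAAT and 27 had GGGCGG in at least 1 promoter. By promoter, 59.5% and 89.2% of the 37 held these motifs. Many member promoters were rich in G and C (78.3% for INSIG1, 68.0% for SREBF2), and the part of base composition in these shares was not tested. FADS1 and FADS2 lie on opposite strands of chromosome 11, and the 2 listed starts of FADS2 lie 800 and 599 bases from that of FADS1. A match describes letters only, and says nothing of binding. ACAT2, FASN, FDFT1 and SQLE are not in the table.

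Values are log2 probe set signals of Affymetrix human gene arrays. Replicate 1 of both groups lay on a lower scale, with array medians of 5.85 and 5.80 against 6.99 to 7.04 on the other 6 arrays, so the replicate 1 pair is called array set 1, replicates 2 to 4 are called array set 2, and differences are read within sets. The labels do not say what sets the 2 array sets apart. CDK9 itself was at 28.4% of control in the CDK9 siRNA group (log2 difference -1.82 ± 0.05 SE, n = 4 per group, limma adjusted p = 2.18e-07). All 6 mesenchymal markers examined lay above the dim range, 3 of them fell, and 10 of 12 epithelial, leukocyte, hepatocyte and adipocyte markers were dim. Of these 12 markers, 1 epithelial one rose, with the summed log2 signal of the 3 epithelial markers at 14.03 to 18.64 in the controls and 14.29 to 18.76 with CDK9 siRNA, and its part in the results was not tested.

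Most of these genes differed little between CDK9 siRNA and control, and 25 of 30 did not pass the test. Of the 30 measured genes 4 rose, ELOVL6, SCD, FADS1 and STARD4, and 1 fell, FASN. A change here means a limma adjusted p under 0.05 over all 18417 genes, from a model that holds the array set as a block. These 5 genes are 16.7% of the 30, beside 14.2% of all genes tested. Of all genes 30% are dim and of the members none, and with dim genes left out 7 of the 30 passed, 23.3% beside 23.8% of the 12892 genes then tested. With all genes kept, the upward calls were 4 of 30 beside 6.73% of all genes, and downward 1 of 30 beside 7.47%. The changes were small, from 1.14-fold to 1.24-fold upward and to 84.8% of control downward. In either direction 0 of 30 reached 1.5-fold, beside 247 of all 18417 genes. The median log2 difference of the 30 was 0.04, beside -0.0016 for all genes. Every array mixes RNA of a whole culture, so fewer cells making a transcript and less of it per cell cannot be told apart. With the replicate number as a block, which pairs same-numbered arrays, 2 members rose, ELOVL6 and SCD, beside 4.41% of all genes, and 0 fell beside 4.75% (9.17% in either direction). In set 2 alone 9 rose and 1 fell, beside 9.52% and 8.57% of all genes (18.1% in either direction), and the 5 added genes were MSMO1, EBP, IDI1, SC5D and INSIG1. Without any block 0 members passed and 0 of all genes did (0.0%), with 51 of all genes and 0 members at an unadjusted p under 0.05. The count rested on single arrays as well. Without replicate 1 of either group it was 10, without replicate 2, 3 or 4 of the CDK9 siRNA group it was 3, 1 and 3, and without the same replicates of the control group it was 1, 2 and 2.

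**Figure D1:**
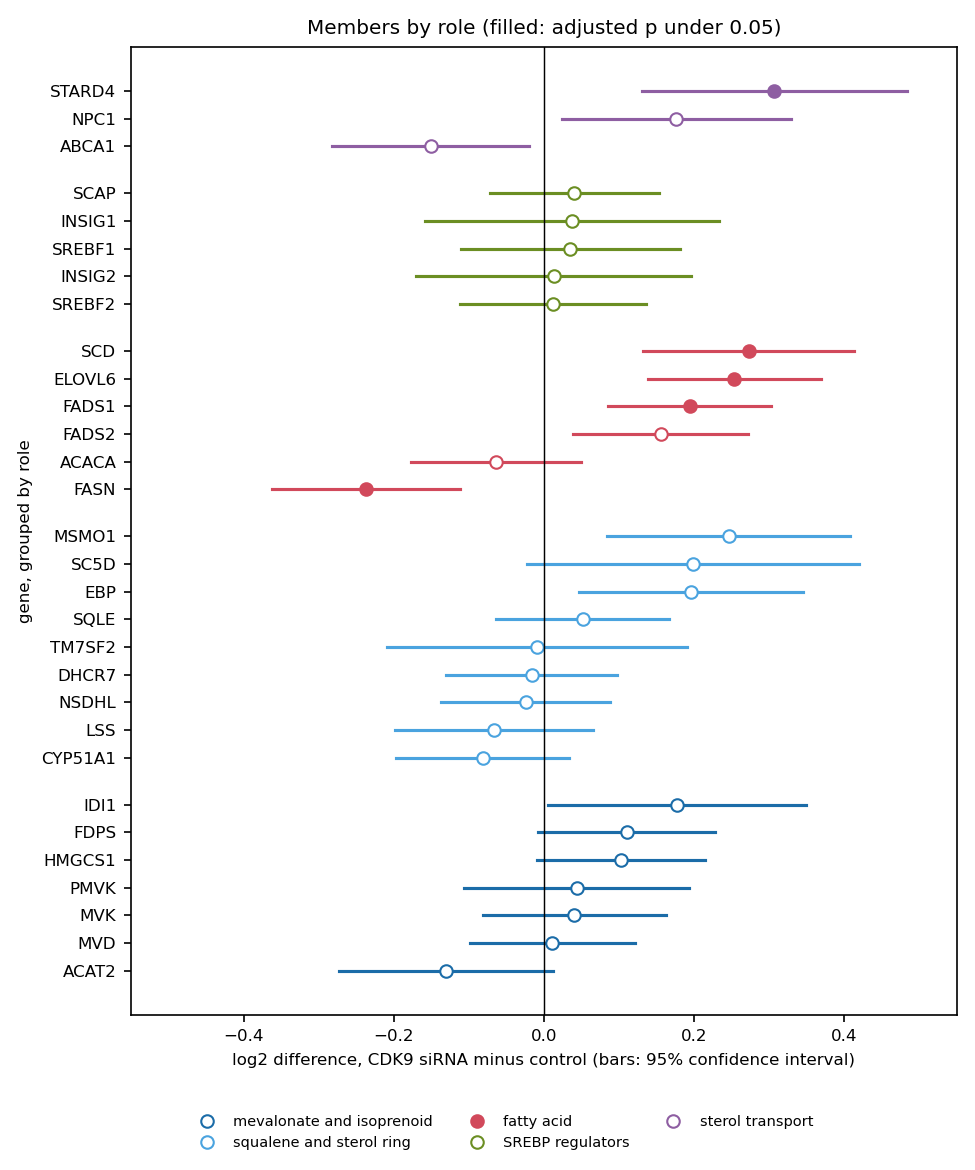
Log2 difference of each of the 30 measured genes, CDK9 siRNA minus control (horizontal axis), with the 95% confidence interval of the fit as a bar; genes are grouped by role and filled points passed an adjusted p under 0.05. The filled points are STARD4, SCD, ELOVL6 and FADS1 to the right of 0 and FASN to the left, while the 16 sterol synthesis enzymes and the 5 regulators have open points.

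Of the 6 fatty acid enzymes 3 rose, ELOVL6, SCD and FADS1, beside 6.73% of all genes, and 1 fell, FASN, beside 7.47%. ACACA and FADS2 did not pass. With the replicate block 2 of the 6 passed, ELOVL6 and SCD, beside 9.17% of all genes. ELOVL6, the elongase that turns palmitate into stearate (probe set 8102342), read 7.07, 8.70, 8.61 and 8.71 in control replicates 1 to 4 and 7.33, 8.94, 8.86 and 8.97 in CDK9 siRNA replicates 1 to 4. Within each array set every CDK9 siRNA array was above every control array. The difference was 0.25 ± 0.05 (SE, n = 4 per group, limma adjusted p = 0.0112), 0.26 in set 1 and 0.25 in set 2. It passed without any one of the 8 arrays, with adjusted p from 0.019 to 0.0482.

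SCD is the desaturase that places the double bond of oleate. Its probe set (7929816) read 9.14, 11.24, 11.35 and 11.39 in the controls and 9.55, 11.52, 11.65 and 11.50 with CDK9 siRNA, again without overlap within either set. SCD rose by 0.27 ± 0.06 (SE, n = 4 per group, limma adjusted p = 0.0194, and 0.0453 with the replicate block), with 0.41 in set 1 and 0.23 in set 2. Leaving out CDK9 siRNA replicate 3 ended the call (adjusted p = 0.0623), and so did leaving out control replicate 2 (0.0615).

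FADS1 and FADS2, the delta-5 and delta-6 desaturases of polyunsaturated fatty acids, lie next to each other in the genome. FADS1 (probe set 7948612) read 8.91, 10.19, 10.19 and 10.26 in the controls and 9.07, 10.44, 10.44 and 10.37 with CDK9 siRNA. The arrays did not overlap within sets, and the difference was 0.19 ± 0.05 (SE, n = 4 per group, limma adjusted p = 0.0274). It did not pass with the replicate block (adjusted p = 0.0812) and was lost without any one of 5 arrays, CDK9 siRNA replicates 2 and 3 and control replicates 2, 3 and 4 (highest adjusted p = 0.0964). FADS2 read 9.30, 11.28, 11.32 and 11.38 in the controls and 9.38, 11.49, 11.57 and 11.46 with CDK9 siRNA. Its arrays were also apart within each set, at a difference of 0.16 ± 0.05 that did not pass (limma adjusted p = 0.0815, 95% confidence interval 0.04 to 0.27). With dim genes left out FADS2 passed (limma adjusted p = 0.0435).

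FASN, which builds palmitate from acetyl-CoA and malonyl-CoA, went the other way. Its probe set (8019392) read 8.79, 9.77, 9.79 and 9.85 in the controls against 8.72, 9.51, 9.51 and 9.52 with CDK9 siRNA. The 3 CDK9 siRNA arrays of set 2 lay close together and below all 3 controls of that set, while the set 1 pair differed by only -0.07. FASN fell by 0.24 ± 0.06 (SE, n = 4 per group, limma adjusted p = 0.0218), to 84.8% of control. In set 2 the difference was -0.29. With the replicate block the adjusted p was 0.0632, and the call was lost without any one of the 6 arrays of set 2 (adjusted p from 0.0533 to 0.0741). ACACA, the carboxylase that supplies malonyl-CoA, read 8.32, 9.39, 9.46 and 9.46 in the controls and 8.20, 9.40, 9.34 and 9.44 with CDK9 siRNA. These ranges met in set 2, and the difference of -0.06 did not pass (adjusted p = 0.465).

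**Figure D2:**
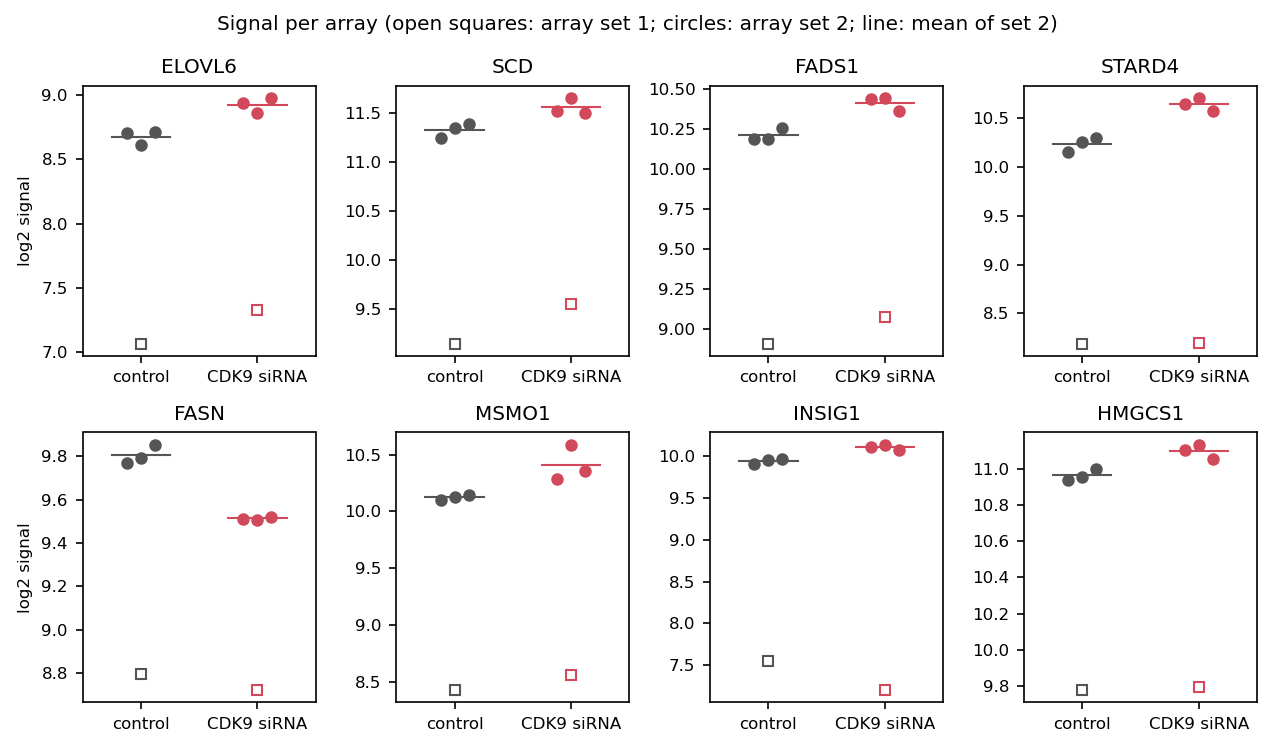
Log2 signal (vertical axis, a separate range in each panel that does not start at 0) of 8 members on each array, control in grey and CDK9 siRNA in red; open squares are the replicate 1 pair (set 1), circles are replicates 2 to 4 (set 2) and lines are set 2 means. ELOVL6, SCD and FADS1 are higher and FASN lower with CDK9 siRNA in both sets, STARD4 is higher mainly in set 2, and INSIG1 is higher in set 2 and lower in set 1.

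Among the 3 sterol transport genes 1 rose, beside 6.73% of all genes, and 0 fell, beside 7.47%. STARD4, a cytosolic carrier that moves cholesterol between membranes and is itself an SREBP-2 target, had the largest difference of all 30 members. It read 8.19, 10.16, 10.25 and 10.30 in the controls and 8.20, 10.64, 10.70 and 10.58 with CDK9 siRNA (probe set 8113491). The groups were well apart in set 2, whereas the set 1 pair was nearly equal. The difference was 0.31 ± 0.08 (SE, n = 4 per group, limma adjusted p = 0.0309), from 0.0077 in set 1 and 0.41 in set 2. The test of that gap between sets gave adjusted p = 0.117. STARD4 did not pass with the replicate block (adjusted p = 0.0746) and lost its call without any one of the 6 arrays of set 2 (adjusted p from 0.0597 to 0.0899).

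NPC1, the lysosomal protein that passes cholesterol out of the lysosome, read 7.78, 8.86, 9.01 and 8.95 in the controls and 8.18, 9.09, 9.04 and 9.00 with CDK9 siRNA. Here the larger gap was in set 1 (0.40) and the set 2 arrays overlapped, and the difference of 0.18 ± 0.07 did not pass (limma adjusted p = 0.123). ABCA1, which exports cholesterol to apolipoproteins, read 5.10, 7.19, 7.05 and 7.10 in the controls and 4.94, 7.01, 6.86 and 7.02 with CDK9 siRNA. All its CDK9 siRNA arrays were below the controls of their set, at a difference of -0.15 ± 0.06 that did not pass either (adjusted p = 0.125, 95% confidence interval -0.28 to -0.02).

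Of the 16 measured enzymes of sterol synthesis 0 passed in limma, beside 14.2% of all genes. At an unadjusted limma p under 0.05 were 3 (IDI1, MSMO1 and EBP), beside 5160 of all 18417 genes. With the replicate block 0 of the 16 passed, beside 9.17% of all genes. In set 2 alone IDI1, MSMO1, EBP and SC5D passed, beside 18.1% of all genes. With dim genes left out MSMO1 alone of the 16 passed, beside 23.8% of the genes then tested. Their differences ran from -0.13 (ACAT2) to 0.25 (MSMO1), with a median of 0.04. The 95% confidence intervals of the 16 together spanned -0.27 (ACAT2) to 0.42 (SC5D), so changes of up to that size are not excluded for these 2 genes. Each interval is for a single gene, is not adjusted for the number of genes and takes a common difference for both array sets. Larger changes lie outside every interval, but this is no joint bound for the 16. Whether the sterol enzymes differ from the fatty acid enzymes in their response was not tested.

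In the early steps, ACAT2, the thiolase that joins 2 acetyl-CoA, read 8.91, 9.87, 9.99 and 9.96 in the controls and 8.82, 9.70, 9.93 and 9.76 with CDK9 siRNA, a difference of -0.13 (adjusted p = 0.221). HMGCS1, which makes HMG-CoA, lay above the controls of the same set on every CDK9 siRNA array (0.02 in set 1 and 0.13 in set 2), yet the difference was 0.10 ± 0.05 and did not pass (adjusted p = 0.218). The kinases MVK and PMVK and the decarboxylase MVD, which turn mevalonate into isopentenyl diphosphate, differed by 0.04, 0.04 and 0.01 (adjusted p = 0.69, 0.734 and 0.918). All 3 overlapped between groups in set 2 or moved in opposite directions in the 2 sets.

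IDI1, the isomerase of isopentenyl diphosphate, read 7.83, 9.04, 9.06 and 9.13 in the controls and 7.72, 9.27, 9.44 and 9.35 with CDK9 siRNA. The sets disagreed in sign, with -0.11 in set 1 and 0.27 in set 2, and IDI1 passed in set 2 alone (limma adjusted p = 0.0194) but not with both (0.18, adjusted p = 0.166). FDPS, which makes farnesyl diphosphate, gave -0.0085 in set 1 and 0.15 in set 2 (both sets 0.11, adjusted p = 0.208). FDPS is also named with other genes on 2 further probe sets that were not used here.

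In the squalene and ring steps, MSMO1, a methyl sterol oxidase, lay closest to the threshold. It read 8.43, 10.10, 10.13 and 10.15 in the controls and 8.56, 10.28, 10.59 and 10.36 with CDK9 siRNA, with no overlap within sets. The difference was 0.25 ± 0.07 (SE, n = 4 per group, limma adjusted p = 0.051, 95% confidence interval 0.08 to 0.41). MSMO1 passed once each array was centred on its median (adjusted p = 0.0452), with quantile normalization repeated (0.0384) and with dim genes left out (0.03). EBP, the sterol isomerase, read 8.20, 9.49, 9.47 and 9.52 in the controls and 8.24, 9.70, 9.87 and 9.65 with CDK9 siRNA. Its groups were likewise apart within sets, at 0.20 ± 0.07 (adjusted p = 0.0847, 0.0414 with quantile normalization repeated and 0.0396 in set 2 alone).

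SC5D, the desaturase that forms the double bond of the sterol B ring, read 8.67, 9.56, 9.67 and 9.72 in the controls and 8.48, 9.91, 10.12 and 9.90 with CDK9 siRNA. With CDK9 siRNA it was lower in the set 1 pair (-0.19) and higher in set 2 (0.33, adjusted p = 0.0248 in set 2 alone), and both together gave 0.20 (adjusted p = 0.229). SQLE, the epoxidase that is a control point of the pathway, read 9.95, 11.46, 11.47 and 11.49 in the controls and 9.95, 11.49, 11.62 and 11.52 with CDK9 siRNA, overlapping in set 2 (0.05, adjusted p = 0.576). LSS, which closes squalene into the sterol rings, and CYP51A1, the lanosterol demethylase, differed by -0.07 and -0.08 (adjusted p = 0.52 and 0.349). A second CYP51A1 probe set gave -0.06. TM7SF2, a sterol reductase, differed by 0.26 in set 1 and -0.10 in set 2. NSDHL, which removes a carboxyl group from the ring, and DHCR7, a late reductase of the pathway, differed by -0.02 and -0.02 over both sets (adjusted p = 0.805 and 0.877).

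None of the 5 SREBP regulators passed in limma, beside 14.2% of all genes. None of them was at an unadjusted limma p under 0.05, beside 5160 of all 18417 genes. With the replicate block none passed, beside 9.17% of all genes. In set 2 alone INSIG1 passed (limma adjusted p = 0.045), beside 18.1% of all genes. With dim genes left out none passed, beside 23.8% of the genes then tested. SREBF1, which encodes the SREBP most tied to fatty acid synthesis, differed by 0.04 (95% confidence interval -0.11 to 0.18), SREBF2 by 0.01 (-0.11 to 0.14) and the escort SCAP by 0.04 (-0.07 to 0.15). By array, SREBF2 read 8.19, 9.80, 9.83 and 9.85 in the controls and 8.27, 9.75, 9.77 and 9.92 with CDK9 siRNA, and the groups overlapped in set 2. The adjusted p values of the 5 ran from 0.666 to 0.942.

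INSIG1 and INSIG2, the sterol-sensing anchors that keep SCAP in the endoplasmic reticulum, gave differences of opposite sign in the array sets. INSIG1, a sensitive SREBP target (probe set 8137526), read 7.55, 9.90, 9.95 and 9.97 in the controls and 7.20, 10.11, 10.14 and 10.08 with CDK9 siRNA. It was lower by 0.35 in the set 1 pair and higher on all 3 CDK9 siRNA arrays of set 2, by 0.17. The difference between sets passed in limma (adjusted p = 0.042), the only one of 30 members to do so beside 2.14% of all genes. That call was lost without any one of the 6 arrays of set 2, CDK9 siRNA or control replicates 2 to 4 (adjusted p from 0.0522 to 0.112), and with quantile normalization repeated (0.0642). Array set 1 has 1 array per group and gives no spread of its own. INSIG2 read 7.75, 8.93, 8.99 and 9.03 in the controls and 7.43, 9.07, 9.15 and 9.11 with CDK9 siRNA, that is -0.33 in set 1 and 0.13 in set 2 (adjusted p of the difference = 0.068).

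Across the 30 members, 20 (66.7%) had the same sign in both array sets, beside 56.9% of all genes. All 6 fatty acid genes and all 3 transport genes did, against 10 of 16 sterol enzymes and 1 of 5 regulators. The median difference of the 30 was -0.0072 in set 1 and 0.09 in set 2. Groups did not overlap within either set, in the same direction in both, for 10 of 30 members, beside 25.3% of all genes. Of these 8 were higher, beside 11.5% of all genes, and 2 lower, FASN and ABCA1, beside 13.8%. For each of the 10, an exact permutation test within sets (two-sided, 40 arrangements) gave p = 0.05, the smallest p this design allows. Groups that do not overlap in this way always give that p, so it restates the selection and adds no support.

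**Figure D3:**
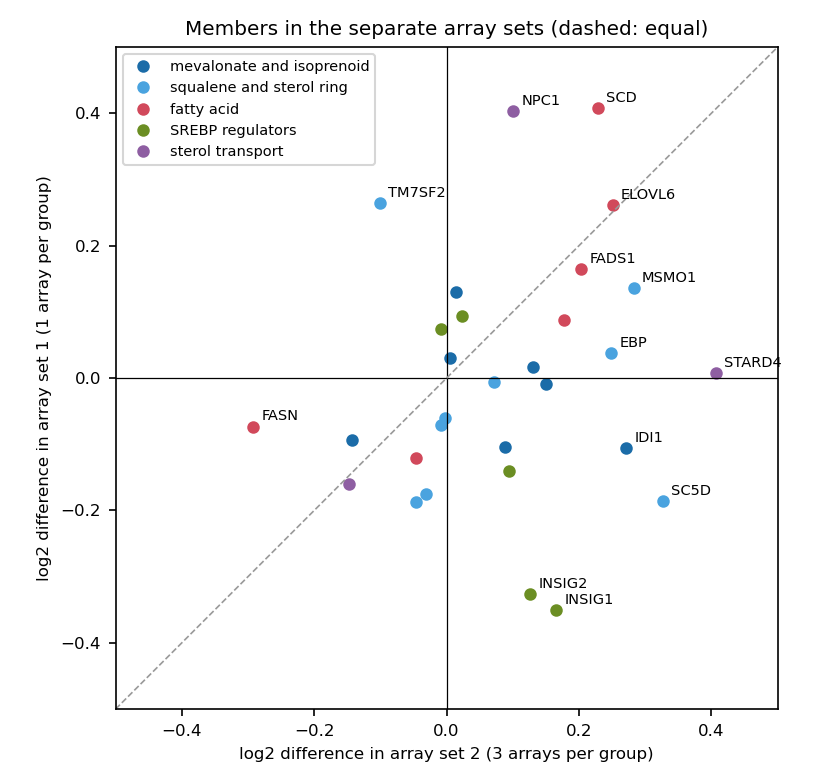
Log2 difference of each measured member (CDK9 siRNA minus control) in set 2, 3 arrays per group (horizontal axis), against that in set 1, 1 array per group (vertical axis), coloured by role; the dashed line marks equal differences. ELOVL6 and FADS1 lie near the line, SCD and NPC1 above it, and INSIG1, INSIG2, SC5D and IDI1 lie to the right of 0 and below it.

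Of 91 other lipid genes from 6 lists 83 were measured, and 19 rose and 6 fell, 30.1% beside 14.2% of all genes tested. With dim genes left out 30 of 78 passed, 38.5% beside 23.8%. The lists were chosen with earlier results of these data known, so these shares are descriptive and no test of the lists. Of 10 genes that act on SREBP cleavage or respond to sterols 5 rose, beside 6.73% of all genes, and 0 fell, beside 7.47%. The median of the 10 was 0.17. TMEM97, the sterol-responsive sigma-2 receptor, rose most (0.47 ± 0.06 SE, n = 4 per group, limma adjusted p = 0.00109), with 0.60 and 0.43 in sets 1 and 2. ERLIN1, a sterol-binding scaffold of the endoplasmic reticulum, rose by 0.31 and MBTPS2, the second SREBP-cleaving protease, by 0.30. TMEM33 (0.19) and the ubiquitin-conjugating enzyme UBE2G2 (0.19) rose as well but did not pass with the replicate block (adjusted p = 0.112 and 0.0831). TMEM33 lost its call with quantile normalization repeated (0.065) and without any one of the 8 arrays, and UBE2G2 without any one of 5 arrays (replicates 3 and 4 of CDK9 siRNA and 2, 3 and 4 of the control) (highest adjusted p = 0.107 and 0.0869).

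Genes of acetyl-CoA supply and lipid assembly had 5 of 21 higher, beside 6.73% of all genes, and 1 lower, beside 7.47%. The malic enzyme ME1, a source of NADPH, rose by 0.37, the ketoacyl-CoA reductase of elongation HSD17B12 by 0.35 and the arachidonate-activating enzyme ACSL4 by 0.35 (adjusted p = 0.0139, 0.00538 and 0.017). ACLY, which makes cytosolic acetyl-CoA from citrate, rose by 0.16, the triglyceride enzyme DGAT1 by 0.21, and the mitochondrial citrate carrier SLC25A1 fell by 0.18. These last 3 did not pass with the replicate block (adjusted p = 0.114, 0.0862 and 0.0958). ACLY lost its call without any one of the 6 arrays of set 2 (up to adjusted p = 0.123) and with quantile normalization repeated (0.0643). SLC25A1 lost its call without any array but CDK9 siRNA replicate 2 (up to 0.141) and with arrays centred or quantile normalized (0.0806 and 0.0683), and DGAT1 without any array but control replicate 4 (up to 0.0935).

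The fatty acid oxidation list of 17 genes also held regulators and a lipid droplet protein. In it 4 rose, beside 6.73% of all genes, 2 fell, beside 7.47%, and 11 did not pass. PDK4, the kinase that shuts pyruvate out of oxidation, rose 1.66-fold (0.73 ± 0.10 SE, n = 4 per group, limma adjusted p = 0.00222), with 0.28 in set 1 and 0.89 in set 2. It read 5.14, 7.10, 7.06 and 7.15 in the controls and 5.41, 8.02, 7.88 and 8.07 with CDK9 siRNA. PDK4 was the only one of the 83 other lipid genes to reach 1.5-fold in either direction, beside 247 of all 18417 genes. PPARA, the nuclear receptor that drives fatty acid oxidation, rose by 0.37, the carnitine transferase CPT2 by 0.35 and the electron-transfer dehydrogenase ETFDH by 0.34. PLIN2, the coat protein of lipid droplets, fell by 0.40 and the receptor PPARD by 0.24. ETFDH did not pass with the replicate block (adjusted p = 0.0516) and lost its call without the same arrays as UBE2G2 (up to 0.12). PPARD lost its call when any CDK9 siRNA array of set 2, or control replicate 2 or 3, was left out (up to 0.0816).

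The remaining lists held fewer calls. Isoprenoid branch enzymes had 3 of 13 higher, beside 6.73% of all genes, and 0 lower, beside 7.47%. PGGT1B, a subunit of the geranylgeranyl transferase of small GTPases, rose most (0.39 ± 0.06 SE, limma adjusted p = 0.00294). The dolichol enzyme subunit NUS1 (0.28) and the prenylcysteine methyltransferase ICMT (0.25) rose as well. ICMT lost its call when replicate 3 or 4 of CDK9 siRNA, or 2 or 4 of the control, was left out (up to adjusted p = 0.0825). In sterol trafficking and esterification 2 of 15 rose, beside 6.73% of all genes, and 2 fell, beside 7.47%. SOAT1, which esterifies cholesterol, rose by 0.29 and the lipoprotein receptor SCARB1 by 0.18, while the membrane-contact sterol carriers GRAMD1C and GRAMD1A fell by 0.35 and 0.27. SCARB1 did not pass with the replicate block (adjusted p = 0.0837) and lost its call without any array but CDK9 siRNA replicate 4 (up to 0.111). Of 7 LXR factors and targets 1 fell, beside 7.47% of all genes, and 0 rose, beside 6.73%. The gene that fell was RXRA, the shared partner of many nuclear receptors (-0.28, limma adjusted p = 0.0064). The list medians were 0.11 for acetyl-CoA supply, 0.04 for oxidation, 0.06 for isoprenoid enzymes, 0.0089 for trafficking and -0.10 for LXR genes, beside -0.0016 for all genes. The LXR median was -0.37 in set 1, which has 1 array per group, and -0.07 in set 2. Only 3 of the 7 LXR genes had the same sign in both sets.

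**Figure D4:**
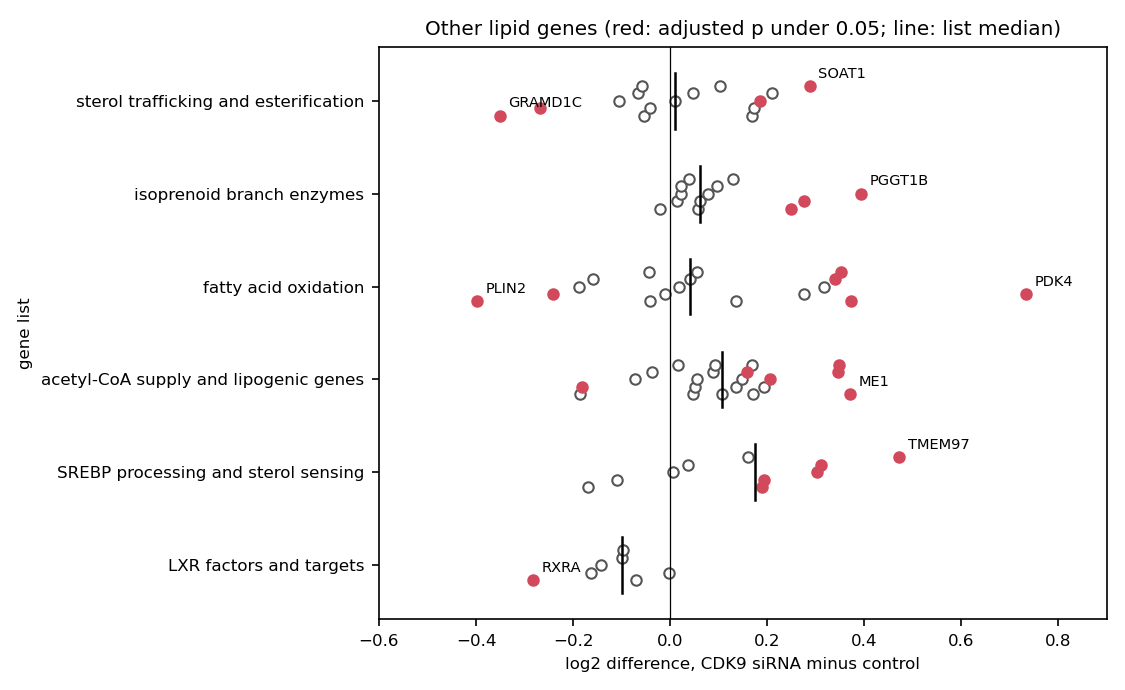
Log2 difference (CDK9 siRNA minus control, horizontal axis) of 83 other lipid genes in 6 lists (vertical axis); red points passed an adjusted p under 0.05, open points did not, and black lines are list medians. PDK4 and TMEM97 lie farthest to the right at 0.73 and 0.47, and PLIN2 farthest to the left at -0.40.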

How the data were processed

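The authors deposited a table of log2 probe set signals for 33297 probe sets in 8 arrays, with no missing value. Affymetrix Expression Console 1.1, RMA, limma and hg19 are named in the submitters' processing notes, with no role or order. In the platform annotation 19460 probe sets carry 1 gene symbol, 1754 carry several and 12083 carry none. RefSeq tables of GRCh38.p14 served for names (19429 probe sets matched by Entrez identifier) and promoters. For each gene the probe set with the highest mean was kept. Groups were compared in R 4.3.3 with limma 3.58.1 (lmFit and eBayes, two-sided, Benjamini-Hochberg adjustment over 18417 genes), with the array set as a block. Figures were drawn with matplotlib 3.10.9 in Python 3.11.15. The fit was tested on simulated data in which each change was the same in both array sets. That test does not bear on differences between sets, and its outcome for changes as small as those of the members is not given here. No 2 arrays held mostly identical values. The number of arrays limits the precision.

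The members, the lists and the lead fit were chosen with earlier results of these data known. All measured members are named. Values on every array are given for members that passed and for the 4 next by adjusted p, and, for others added after their values were seen, where they show the array sets. Genes of other lists are named where they passed, up to 5 in each direction.

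Replicate numbers recur in both groups. Deviations from group means correlated within numbers 1 to 4 at 0.822, 0.537, 0.494 and 0.607, so the fit with the replicate number as a block is given beside each result whose call it changes. Within array set 2 the correlations were 0.108, -0.01 and 0.17, so most of the pairing is the split into array sets.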

Additional observations from a re-analysis of the deposited data

Results flagged for a closer look

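The log2 difference of INSIG1 had opposite signs in the 2 array sets, of which set 1 has 1 array per group. Subtracting its set 2 log2 difference from its set 1 difference gave -0.52 (limma interaction adjusted p = 0.042), 1 of 30 members that passed beside 2.14% of all genes. This did not pass without any one of the 6 arrays of set 2 (adjusted p from 0.0522 to 0.112) or with quantile normalization repeated (0.0642). ACADL, a long-chain acyl-CoA dehydrogenase from the fatty acid oxidation list, differed more, by -1.13 (adjusted p = 0.0104). It read 6.23, 7.91, 7.95 and 7.96 in control replicates 1 to 4 and 5.70, 8.49, 8.54 and 8.59 in CDK9 siRNA replicates 1 to 4, so it was lower in set 1 (-0.53) and higher in set 2 (0.60), and did not pass over both (adjusted p = 0.26).

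In 2 of 60 groups of member values 1 array lay far from the other 3, after each value was set against the mean of its array set. The usual chance rate of about 1 in 20 (5%) need not hold here. Replicate 1 was set against the mean of its own pair, and the other replicates against that of 6 arrays. LSS in control replicate 2 was at -0.0944, against 0.07 to 0.09 in the other controls. FASN in CDK9 siRNA replicate 1 was at -0.0367, against -0.15 to -0.14 in the other CDK9 siRNA arrays. By construction control replicate 1 lay equally far above the mean of that pair. The value therefore restates the small FASN difference in set 1 (-0.07) and cannot be assigned to 1 array.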

How the results depend on the processing

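The number of members that passed was 0 without a block, 2 with the replicate block and 10 in set 2 alone, against 5. It ran from 1 to 10 with 1 array left out. For the other lipid genes, 25 passed, 0 without a block (0 also at an unadjusted p under 0.05 in limma) and 16 to 28 with 1 array left out. The count of members whose response differed between array sets, 1, was 0 with quantile normalization repeated, 2 with dim genes left out and 0 without any one array of set 2. The alternatives for that count were chosen after seeing the data. The replicate block ended the calls of FASN, FADS1 and STARD4 and of 7 other lipid genes named with their values. Leaving out 1 array of set 1 leaves its partner with no comparison, so it equals set 2 alone.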
